A study of Mus musculus with 12 samples.

Results

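Genes of the tumour necrosis factor (TNF) and NF-κB response were followed in mouse muscle stem cells (MuSCs) and in myoblasts grown from them. The 10 genes are *Nfkb1*, *Nfkb2* and *Relb*, which encode NF-κB subunits, *Nfkbia*, *Nfkbiz* and *Tnfaip3*, which encode regulators of the pathway, *Birc3* and *Traf1*, which encode signalling proteins at the receptors, and the response genes *Tnfaip2* and *Icam1*. Each was found by its gene name, in 1 row of each of 2 tables, among 17494 gene names listed in either table. The list was selected on expression values of these same libraries. *Tnfaip2* had already been seen among the largest increases in Nedd4L-cKO MuSCs, and which values brought in the other 9 genes is not given in the sources used here. The values of the 10 genes between genotypes are therefore given as a description, with no p-value, and counts of them past a threshold are printed without being read as evidence.

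All 12 libraries were made from 1000 cells each with SMART-Seq HT, which amplifies full-length cDNA. MuSCs were freshly sorted from hindlimb muscle as ITGA7+, CD31-, CD45-, CD11b- and SCA1- cells from 3 Nedd4L-cKO and 3 WT male mice aged 5 to 6 weeks (replicates 1 to 3). The Nedd4L-cKO mice were Nedd4L fl/fl Pax7 cre/+ on a C57BL/6 background, so Cre came from the *Pax7* locus and removed exon 15 of *Nedd4l*, a ubiquitin ligase gene that remains transcribed. Whether the WT mice carried Cre or a floxed allele is not given in the sources used here. For the second comparison, MuSCs of 3 WT mice were sequenced fresh, and cells from the same mice, by the series' design, were sequenced as myoblasts after 3 days in Ham's F10 medium with serum and basic FGF (replicates 4 to 6). For these mice the study's methods give only an age range that covers all its experiments, and male mice as the source of cultured myoblasts.

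NF-κB transcription factors are dimers that IκB proteins, such as the product of *Nfkbia*, hold in the cytoplasm of resting cells. TNF and interleukin-1 receptors act through ubiquitin-linked complexes and the IκB kinase, which marks IκB for destruction and lets the dimers enter the nucleus. Several of the genes induced there encode brakes on the same pathway, *Nfkbia* and *Tnfaip3* among them, so their mRNA levels are widely read as a trace of NF-κB activity. A second route, through receptors of the lymphotoxin and CD40 kind, processes the *Nfkb2* product into a partner of RelB. In muscle, the pathway is known for its part in inflammation, wasting and the control of myogenic differentiation.

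The values are normalized counts, expressed here as RPM by dividing every library of a table by the mean of that table's 6 totals. Totals ran from 40323468 to 50687122 normalized counts in the genotype table and from 33189802 to 37595659 in the culture table. The 2 tables were normalized separately, so levels are set side by side but never tested between them. *Nedd4l* lay at 70.2, 96.4 and 66.7 RPM in WT and at 30.2, 36.3 and 22.5 RPM in Nedd4L-cKO MuSCs, which gave a log2 fold change (LFC, the difference in mean log2(RPM + 1)) of -1.37 (limma adjusted p = 0.0467, and 0.0763 with the replicate number as a block). The removed exon was not measured apart from the rest of the gene. Of the sort antigens, *Itga7* lay between 96.8 and 140 RPM in the 6 libraries of the genotype table, while *Ptprc* (CD45), *Itgam* (CD11b) and *Ly6a* (SCA1) reached at most 0.465, 0.702 and 2.69 RPM. *Pecam1* (CD31) was present at 15 to 49.9 RPM there and at 7.48 to 16 RPM in the culture table. In bulk libraries, fewer cells of a type and less RNA per cell cannot be told apart.

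Promoter sequences are shown for *Tnfaip2*, *Tnfaip3*, *Nfkbia* and *Nfkb2*, the 4 members in whose promoters a match to the κB consensus, a pattern NF-κB dimers bind, was found. The pattern searched was GGGRNNYYCC, where R is A or G, Y is C or T and N is any base. RefSeq windows (GRCm38.p6, 250 bases before to 50 after a transcription start) were at hand for 7 of the 10 genes, with 10 windows in all, and *Nfkbiz*, *Nfkb1* and *Relb* had no entry. The 150 bases before the first start are printed 5′ to 3′ on the strand of the gene, and capitals mark matches to the consensus on either strand. These stretches are chr12:111442511-111442660 on the plus strand for *Tnfaip2*, chr10:19015411-19015560 on the minus strand for *Tnfaip3*, chr12:55492648-55492797 on the minus strand for *Nfkbia* and chr19:46304587-46304736 on the plus strand for *Nfkb2*.
Tnfaip2: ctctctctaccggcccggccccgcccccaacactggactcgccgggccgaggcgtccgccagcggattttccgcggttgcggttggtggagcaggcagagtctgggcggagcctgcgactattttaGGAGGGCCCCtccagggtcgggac
Tnfaip3: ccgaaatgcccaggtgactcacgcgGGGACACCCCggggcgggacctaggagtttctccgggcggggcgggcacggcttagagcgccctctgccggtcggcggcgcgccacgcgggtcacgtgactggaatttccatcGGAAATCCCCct
Nfkbia: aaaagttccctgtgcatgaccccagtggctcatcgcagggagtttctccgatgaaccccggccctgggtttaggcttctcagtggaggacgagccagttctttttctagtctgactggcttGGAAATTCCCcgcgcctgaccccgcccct
Nfkb2: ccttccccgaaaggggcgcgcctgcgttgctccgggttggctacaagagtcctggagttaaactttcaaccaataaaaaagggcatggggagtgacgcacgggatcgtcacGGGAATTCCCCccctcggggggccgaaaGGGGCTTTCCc

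The match in *Tnfaip2* began 24 bases before the start, and that in *Nfkbia* 29 bases before it. *Tnfaip3* had matches at 125 and 12 bases before its first start and none in the window of its second start. *Nfkb2* had a pair of overlapping matches at 39 and 38 bases and another at 11 bases before its first start, and each of its other 2 windows held at least 1 match. No match was found in the windows of *Birc3*, *Icam1* and *Traf1*. The pattern was fixed, and the *Icam1* window holds TGGAAATTCC, which departs from it at the first base only. In all, 6 of the 10 windows held a match, and 8.46% of 32851 mouse windows of the same length did. Of these 6 windows 3 are those of *Nfkb2*, of which the last 2 overlap and share 1 site, so that site is counted in both. By gene, 4 of the 7 members held a match in any window, against 9.55% of 27025 mouse genes. A narrower form of the consensus, nested within it, was found in 5 of the 10 windows and in 4.51% of all windows, and the *Tnfaip2* match was not among those 5. A match is a run of letters and was not tested as a binding site, and a window without a match may still hold a site.

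**Figure D1:**
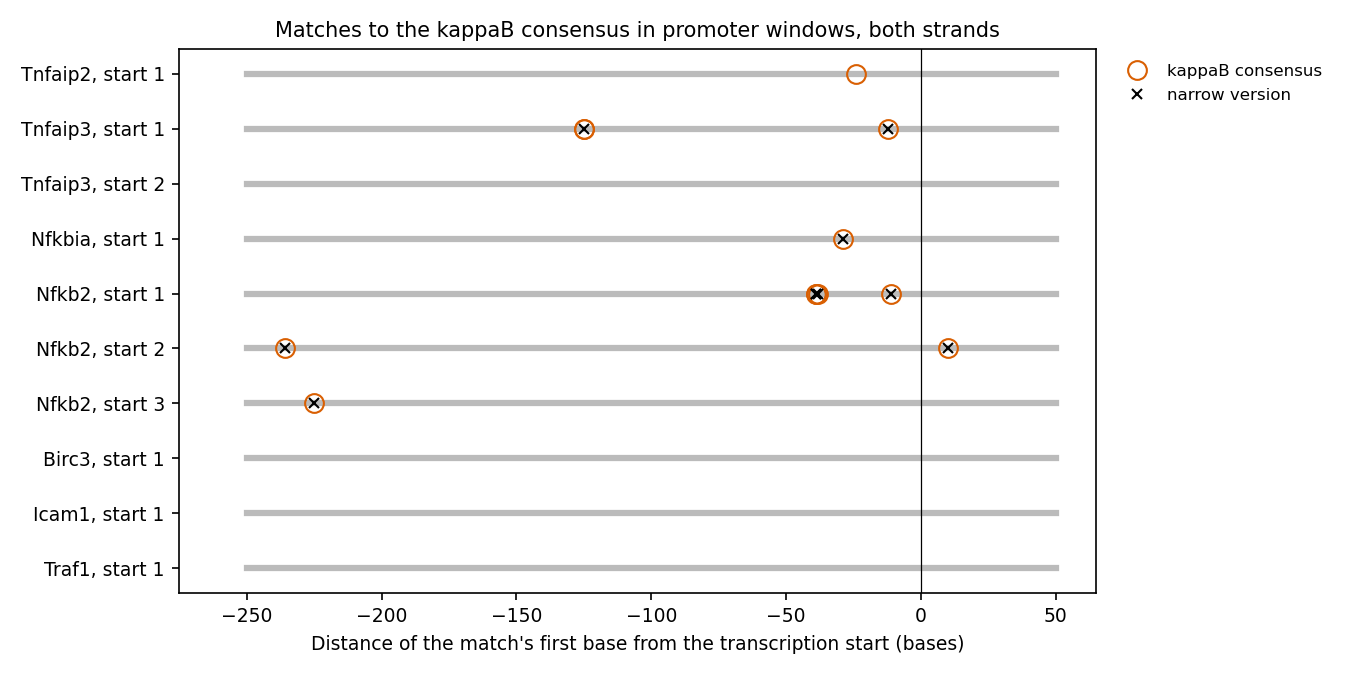
Positions of κB consensus matches in the 10 promoter windows of 7 genes, in bases from the transcription start (0 on the horizontal axis, each grey bar running from 250 bases before to 50 bases after it). Circles mark the consensus on either strand and crosses its narrow form. The matches of *Tnfaip2*, *Nfkbia* and the first start of *Nfkb2* lie within 39 bases before the start, while *Birc3*, *Icam1* and *Traf1* show none.

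In WT MuSCs, *Nfkbia* was by far the most abundant of the 10 mRNAs per unit of exonic length, at a mean of 503 RPM per kb, which placed it at rank 56 of 16104 genes. *Nfkbiz*, the gene of a nuclear IκB protein, followed at 42.2 RPM per kb. The 3 libraries of *Nfkbia* (425 to 597 RPM per kb) lay above those of *Nfkbiz* (31.9 to 47.8), which in turn lay above those of *Tnfaip3* (6.83 to 14.1). Further down the order came *Tnfaip3* at 9.68, *Birc3* at 8.79, *Nfkb1* at 6.91, *Relb* at 5.17, *Nfkb2* at 2.8, *Icam1* at 1.46, *Tnfaip2* at 0.735 and *Traf1* at 0.134 RPM per kb. From *Tnfaip3* downwards the ranges of every pair of neighbours overlapped, so no gene differed from its neighbour in the order beyond the spread between libraries. Genes further apart could differ, as *Tnfaip3* and *Birc3* (6.97 to 11.8) lay above *Nfkb2* (1.72 to 4.21) in every library. In Nedd4L-cKO MuSCs *Nfkbia* and *Nfkbiz* again came first, at 670 and 47.5 RPM per kb, and *Birc3*, at 12.3, and *Tnfaip2*, at 12.1, came next with overlapping ranges.

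**Figure D2:**
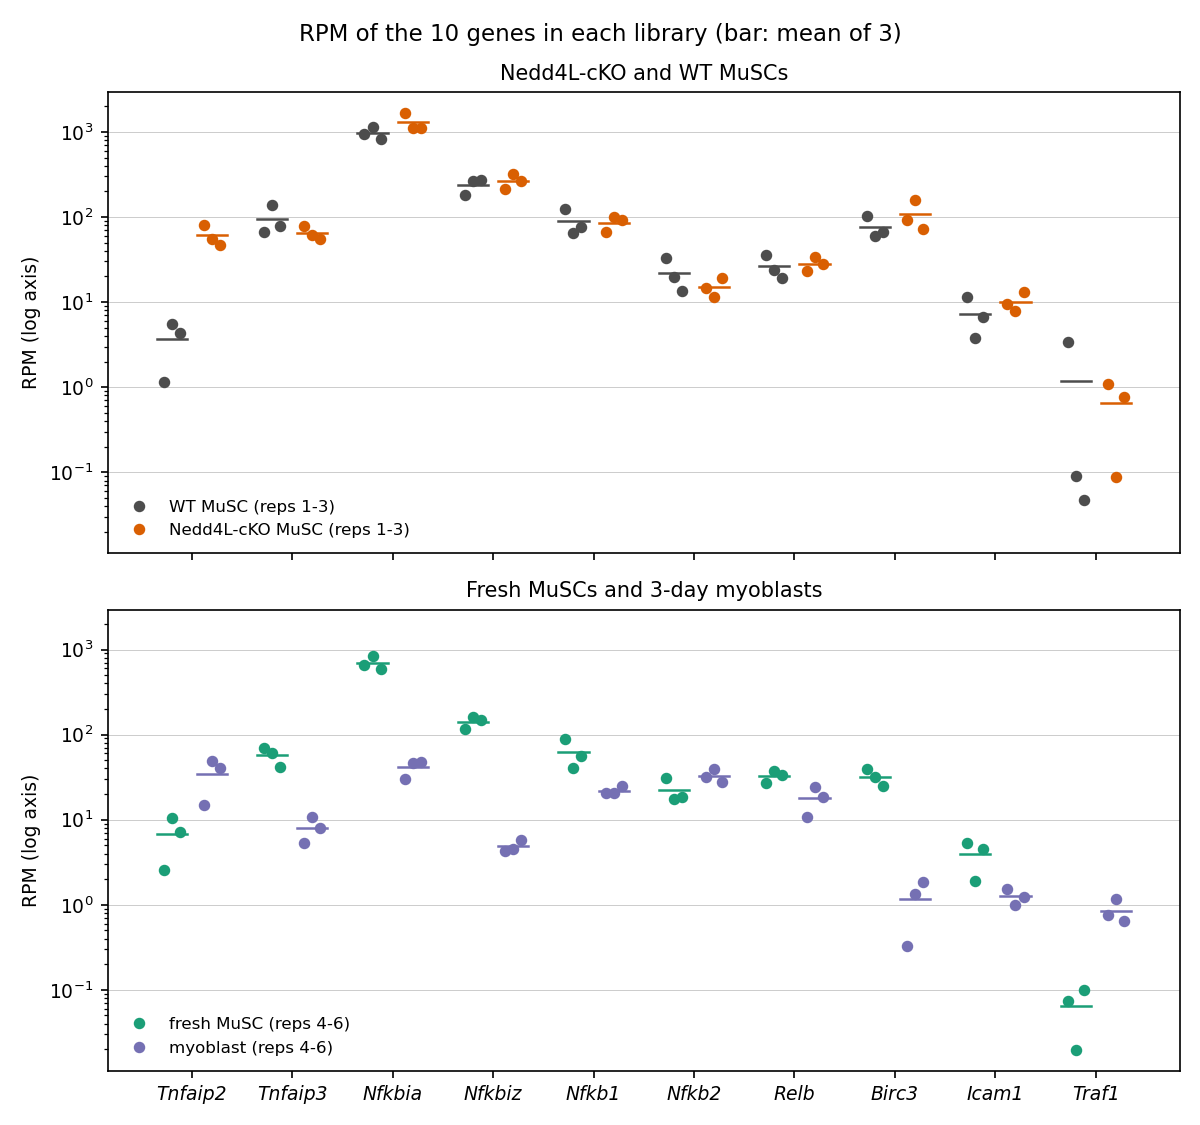
RPM of the 10 genes in each library on a log axis, with WT and Nedd4L-cKO MuSCs in the upper panel and fresh MuSCs and 3-day myoblasts in the lower, where each point is 1 library and each bar the mean of 3. In the upper panel the groups separate for *Tnfaip2* alone, and in the lower panel they separate for all genes but *Nfkb2*.

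The genotype comparison asks how freshly sorted MuSCs of Nedd4L-cKO mice differ from those of WT mice. The paper states that the deletion also reaches differentiated myofibres, which could change what they secrete and so affect MuSCs. Loss in MuSCs and loss in myofibres cannot be told apart here. Among the 10 genes, *Tnfaip2* stood apart, about 16.4-fold higher on the RPM scale in Nedd4L-cKO than in WT MuSCs. The subunit, IκB and signalling genes overlapped between genotypes. *Tnfaip2* encodes a TNF-inducible protein first found in endothelial cells and linked to membrane protrusions. It was measured at 1.16, 5.58 and 4.37 RPM in WT libraries 1 to 3 and at 80.2, 55.5 and 47.0 RPM in Nedd4L-cKO libraries 1 to 3. Every Nedd4L-cKO library was above every WT library. The LFC was 3.83 (SE 0.42, 95% interval 2.92 to 4.74, n = 3 libraries per genotype), the third highest of the 15304 genes tested. Leaving out each library in turn gave 3.34 to 4.14. *Tnfaip2* lies at chr12:111408858-111421452 on the plus strand of GRCm39.

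*Tnfaip3*, which encodes a ubiquitin-editing enzyme that shuts down TNF signalling, did not share this pattern. It lay at 66.3, 137 and 78.5 RPM in WT and at 77.7, 61.9 and 54.7 RPM in Nedd4L-cKO MuSCs. The groups overlapped, with 1 high WT library, and the LFC was -0.47 (SE 0.30, 95% interval -1.14 to 0.19). Per kb of exonic length, the ratio of *Tnfaip3* to *Tnfaip2* was 29.6, 12.8 and 9.32 in the WT libraries. It was 0.502, 0.579 and 0.603 in the Nedd4L-cKO libraries, and was chosen after the values were seen. *Tnfaip3* was the higher of the pair in WT MuSCs in RPM too. In Nedd4L-cKO MuSCs the order rested on the lengths, which cover all annotated exons (9.71 kb for *Tnfaip3*, 5.03 kb for *Tnfaip2*). In RPM, *Tnfaip3* was the higher in Nedd4L-cKO libraries 2 and 3, so which mRNA was more abundant there is not settled.

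The IκB genes *Nfkbia* and *Nfkbiz* were abundant in both genotypes. *Nfkbia* lay at 944, 1157 and 823 RPM in WT and at 1670, 1124 and 1097 RPM in Nedd4L-cKO MuSCs. The highest value belonged to Nedd4L-cKO library 1, the other two Nedd4L-cKO libraries lay within the WT range, and the LFC was 0.40 (SE 0.26, 95% interval -0.16 to 0.96). For *Nfkbiz* the values were 179, 264 and 269 RPM in WT and 214, 318 and 268 RPM in Nedd4L-cKO MuSCs. These overlapped, with an LFC of 0.17 (SE 0.26, 95% interval -0.40 to 0.75).

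For each subunit gene the interval spanned 0. *Nfkb1*, whose product is the precursor of a DNA-binding subunit, lay at 125, 64.5 and 76.7 RPM in WT and at 67, 99.3 and 91.2 RPM in Nedd4L-cKO MuSCs, an LFC of -0.01 (SE 0.30, 95% interval -0.66 to 0.64). *Nfkb2*, the precursor gene of the second route, lay at 33.3, 19.5 and 13.6 RPM in WT and at 14.6, 11.4 and 19.2 RPM in Nedd4L-cKO MuSCs. Its LFC was -0.46 (SE 0.36, 95% interval -1.24 to 0.32). *Relb* lay at 35.7, 23.8 and 19.4 RPM in WT and at 23, 34 and 28.3 RPM in Nedd4L-cKO MuSCs, an LFC of 0.14 (SE 0.30, 95% interval -0.52 to 0.80). In each of these genes the highest WT value was that of WT library 1, which was also the highest WT library for *Birc3*, *Icam1* and *Traf1*, 6 of the 10 genes in all. It was the lowest WT library for *Tnfaip2*, *Tnfaip3* and *Nfkbiz*.

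*Birc3* encodes a ubiquitin ligase recruited to TNF receptors, and its values were 102, 60.5 and 65.8 RPM in WT and 91.3, 157 and 72.2 RPM in Nedd4L-cKO MuSCs. Its LFC was 0.44 (SE 0.33, 95% interval -0.27 to 1.15), with Nedd4L-cKO library 2 alone above the WT range. *Birc3* and *Birc2* are neighbours of similar sequence on chromosome 9, so estimated counts may be divided between them with error. *Birc2* had an LFC of -0.21 (SE 0.29). *Icam1*, the gene of an adhesion molecule for leukocytes, lay at 11.4, 3.78 and 6.67 RPM in WT and at 9.57, 7.83 and 13 RPM in Nedd4L-cKO MuSCs, an LFC of 0.51 (SE 0.40, 95% interval -0.36 to 1.38). *Traf1*, which encodes an adaptor of TNF receptors, was near the limit of these libraries, at 150, 3.95 and 2.06 normalized counts in WT and 47.3, 3.79 and 33.6 in Nedd4L-cKO MuSCs. These correspond to 3.43, 0.0905 and 0.0471 RPM and to 1.08, 0.0869 and 0.77 RPM, so a single WT library set the WT mean.

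A call between genotypes needed a limma adjusted p no higher than 0.05, an LFC of 1 or more in size and 5 RPM or more on average. Of all 15304 genes tested, 0.653% were called in either direction and 0.451% were called higher in Nedd4L-cKO MuSCs, and the genotypes did not overlap for 19.3%. All 10 genes entered the fit, and 1 of them (*Tnfaip2*) lay past these thresholds and did not overlap. As these values took part in choosing the genes, the counts are not read further. The median LFC was 0.16 for the 10 genes and 0.14 for the 9 other than *Tnfaip2*, against 0.00 for all genes tested.

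**Figure D3:**
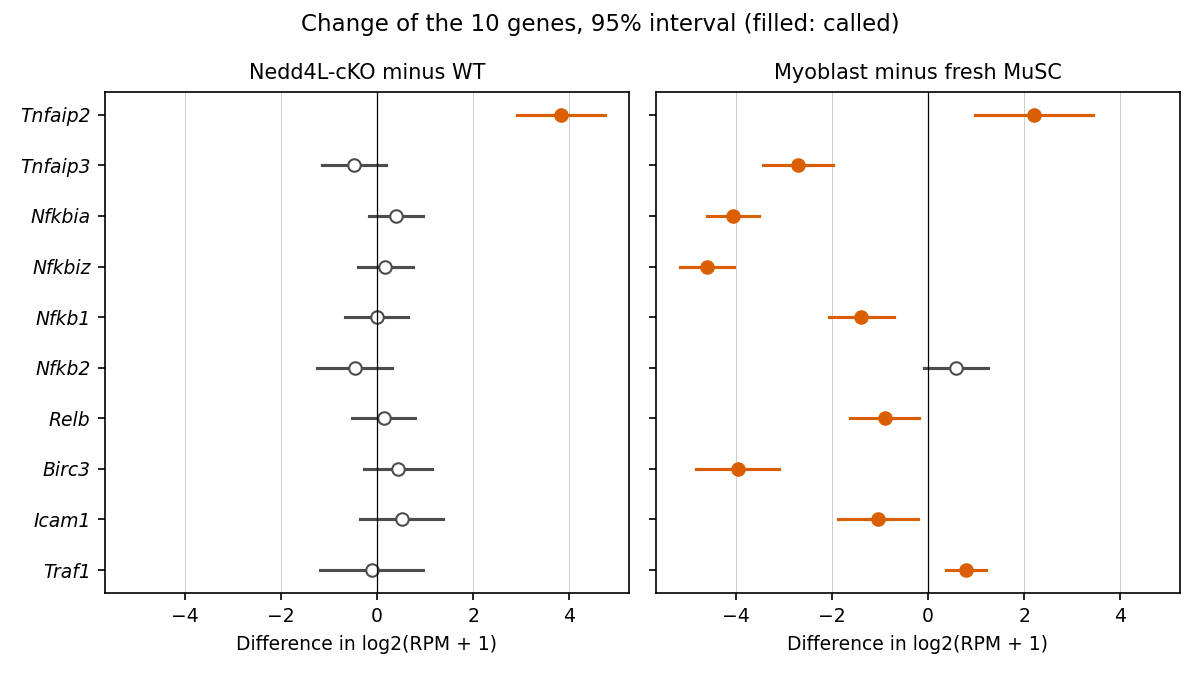
Difference in log2(RPM + 1) of the 10 genes with its 95% interval from limma (n = 3 libraries per group), for Nedd4L-cKO minus WT MuSCs on the left and myoblasts minus fresh MuSCs on the right, where filled symbols mark genes called in that comparison. Only *Tnfaip2* is filled on the left, at 3.83, while on the right *Nfkbiz*, *Nfkbia* and *Birc3* lie furthest to the left and *Tnfaip2* furthest to the right.

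Another 104 genes of the pathway were listed by their role, of which 84 were tested between genotypes. In Nedd4L-cKO MuSCs 9 of them were called, all higher and all among the 29 tested target genes, which include cytokines and chemokines. Part of the target list repeats increases already known from these libraries, *Il6* among them. Neither its count nor the p-values of its single genes are therefore independent evidence of a direction. The target genes had a median LFC of 0.77, against 0.00 for all genes tested. *Ccl11*, the gene of the eosinophil attractant eotaxin, rose from 3.85, 3.94 and 13.3 RPM in WT to 54.3, 123 and 92.0 RPM in Nedd4L-cKO MuSCs (LFC 3.62, SE 0.44, limma adjusted p = 0.0038). *Cxcl10*, an interferon-inducible chemokine gene, rose from 13.0, 13.7 and 20.6 RPM to 134, 145 and 127 RPM (LFC 3.05, SE 0.26, limma adjusted p = 0.00123). The monocyte attractant genes *Ccl7* and *Ccl2* rose by 2.59 and 2.42 on the log2 scale, and the neutrophil attractant genes *Cxcl2* and *Cxcl1* by 2.35 and 1.94. *Il6* rose from 2.52, 4.72 and 10 RPM to 39.7, 58.3 and 24.0 RPM (LFC 2.70, SE 0.44, limma adjusted p = 0.0225). *Tnfaip6*, which encodes a secreted hyaluronan-binding protein, had an LFC of 1.52 (limma adjusted p = 0.0236), and *Ier3*, an early response gene named here after its value was seen, one of 1.31 (limma adjusted p = 0.0467, and 0.108 with the replicate number as a block). Of 14 alternatives, *Cxcl2* was called under 11, *Il6* and *Tnfaip6* under 10 each and *Ier3* under 3, with adjusted p-values that reached 0.0748, 0.105, 0.124 and 0.135 in that order. No WT library overlapped the Nedd4L-cKO libraries for any of these 9 genes. With each library left out in turn between 5 and 8 of the pathway genes were called, with 5 when Nedd4L-cKO library 2 was left out. Near-identical chemokine genes lie in clusters, and estimated counts may be divided between them with error.

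Upstream of the targets, none of the 55 tested ligand, receptor, signalling, subunit, IκB and negative regulator genes was called by limma, and 6 of them had an unadjusted p under 0.05. Of all 15304 genes tested, 0.653% were called and 2240 had an unadjusted limma p under 0.05, so these counts do not set the upstream genes apart. *Tnf* itself was below the filter, at no more than 0.676 RPM in any library of the genotype table. *Tnfrsf1a*, the gene of the main TNF receptor, lay at 68.4, 30.4 and 32.2 RPM in WT and at 22.6, 31.8 and 56.7 RPM in Nedd4L-cKO MuSCs (LFC -0.23, SE 0.39). *Rela*, the gene of the usual activating subunit, lay at 72.1, 48.6 and 40.3 RPM in WT and at 41.4, 36.7 and 56.9 RPM in Nedd4L-cKO MuSCs (LFC -0.23, SE 0.29). Some of the 55 moved further. The highest LFC was that of *Tlr2* (1.53, SE 0.50, limma adjusted p = 0.192) and the lowest that of *Tradd* (-1.37, SE 0.35, limma adjusted p = 0.106). Genotypes did not overlap for 9 of the 55, 4 higher and 5 lower, beside 2959 of all 15304 genes.

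Summed transcripts on marker lists of other cells moved with genotype in part. The summed level of 9 pericyte and smooth muscle markers was 1446 to 2257 RPM in WT and 2527 to 3623 RPM in Nedd4L-cKO MuSCs, with no overlap, although none of the 8 tested was called and *Cnn1* was not listed. Within that list *Acta2* (513 to 949 against 993 to 1661 RPM), *Tagln* and *Myh11* did not overlap, while *Rgs5* (280 to 1034 against 355 to 1945 RPM) and the others did. The sum of 11 myofibre markers was 261 to 493 RPM against 551 to 668 RPM, with none of 11 called. Sums overlapped for 14 leukocyte markers (3.47 to 40.4 RPM in WT and 2.98 to 10.4 RPM in Nedd4L-cKO MuSCs), 12 endothelial markers (65.6 to 113 and 63.2 to 103 RPM), 11 fibro-adipogenic markers (2618 to 4049 and 2301 to 4281 RPM) and 11 immediate early genes known to respond to tissue dissociation (7221 to 8817 and 7790 to 9091 RPM). The sum of 6 Schwann cell markers overlapped too, at 21.4 to 57.5 RPM in WT and 6.54 to 29.6 RPM in Nedd4L-cKO MuSCs, with a median LFC of -0.56 and none called. The immediate early genes did not all follow their sum, though none of the 11 was called. *Dusp1* (901 to 1513 RPM in WT against 636 to 746) and *Ier2* (322 to 432 against 159 to 217) lay lower in Nedd4L-cKO MuSCs. *Hspa1a* lay higher (45.7 to 65.8 against 96.7 to 118 RPM). Each was without overlap, and the rest of that list overlapped. Of the 12 endothelial markers, 4 (*Cdh5*, *Kdr*, *Cldn5* and *Emcn*) were at 0 or not listed and none of the 7 tested was called. Within that list *Esam* lay higher in Nedd4L-cKO (13.7 to 23 RPM) than in WT MuSCs (2.41 to 9.41 RPM) and *Tek* lower (19.1 to 28.4 against 40.9 to 79.6 RPM), each without overlap, and these 2 genes were picked out after their values were seen. The part of these cells in the higher *Tnfaip2* and chemokine values was not tested.

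The culture comparison asks how the same genes stand when MuSCs have left quiescence and grown for 3 days as myoblasts. It shares no library with the genotype comparison, but the list of 10 genes was drawn up with results of both known. Whether these values took part in the choice is not given in the sources used here, so their p-values describe single genes and are no independent support for the list. In myoblasts the IκB genes *Nfkbia* and *Nfkbiz* and the ligase gene *Birc3* were lower than in fresh MuSCs. These decreases lay between 16.8-fold and 29.2-fold on the RPM scale. *Tnfaip3* and *Nfkb1* also fell, whereas *Tnfaip2* rose. Genes were called at a limma adjusted p of at most 0.05, and all 10 passed the filter on low values, *Traf1* through its myoblast libraries, where it is high. Of the 10, 9 were called, 2 higher and 7 lower in myoblasts, and 9 did not overlap. Of all 15345 genes tested, 42.8% were called in either direction, 22.2% higher and 20.6% lower, and 55.2% did not overlap. The count of the 10 is not read against these shares. The median LFC was -1.22 for the 10 genes and 0.04 for all genes tested. Between 6 and 8 were called when 1 library was left out. The lowest count, 6 of 9 tested, came without myoblast library 6, beside 4795 of 14394 for all genes.

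*Nfkbia* (chr12:55535332-55539432, minus strand, GRCm39) fell from 655, 839 and 596 RPM in MuSC libraries 4 to 6 to 29.9, 46.3 and 48.1 RPM in the myoblasts of the same mice. Every MuSC library was far above every myoblast library. Its LFC was -4.05 (SE 0.24, n = 3 mice, limma adjusted p = 5.99e-06). *Nfkbiz* (chr16:55631738-55659262, minus strand) fell further, from 115, 161 and 150 RPM to 4.33, 4.52 and 5.72 RPM. This was a 29.2-fold decrease on the RPM scale, with an LFC of -4.60 (SE 0.25, limma adjusted p = 3.99e-06). With a pseudocount of 0.1 in place of 1, its LFC was -4.84 and that of *Birc3* -4.88, so these decreases have no fixed order. *Tnfaip3* (chr10:18874201-18891405, minus strand) fell from 69.4, 60.6 and 42.0 RPM to 5.33, 10.7 and 8.07 RPM, again with no overlap (LFC -2.71, SE 0.32, limma adjusted p = 0.000245).

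The subunit genes changed less and not in 1 direction. *Nfkb1* (chr3:135290264-135397742, minus strand) fell from 88.2, 40.9 and 56.6 RPM to 20.4, 20.8 and 24.7 RPM (LFC -1.39, SE 0.30, limma adjusted p = 0.00567). *Nfkb2* (chr19:46292759-46303812, plus strand) lay at 30.7, 17.7 and 18.3 RPM in MuSCs and at 31.9, 39.4 and 27.6 RPM in myoblasts. It overlapped through MuSC library 4, with an LFC of 0.58 (SE 0.29, 95% interval -0.08 to 1.24, limma adjusted p = 0.137), and was called (limma adjusted p = 0.0454) when that library was left out. *Relb* (chr7:19339017-19363425, minus strand) lay at 27.2, 37.7 and 33.9 RPM in MuSCs and at 10.9, 24.0 and 18.6 RPM in myoblasts. Its decrease passed narrowly, with an LFC of -0.90 (SE 0.32, limma adjusted p = 0.0483), and was not called under 10 of 14 alternatives, where the adjusted p reached 0.144. Per kb, the ratio of *Nfkb1* to *Nfkb2* was 1.77, 1.42 and 1.9 in the MuSC libraries and 0.393, 0.324 and 0.55 in the myoblast libraries, so *Nfkb1* was the more abundant mRNA in MuSCs and *Nfkb2* in myoblasts. The ratio of *Nfkbia* to *Nfkb1* was 49.2, 136 and 69.9 in MuSCs and 9.71, 14.8 and 12.9 in myoblasts. Both ratios were chosen after the values were seen.

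*Birc3* (chr9:7845790-7873229, minus strand) was nearly lost, from 39.0, 31.5 and 24.6 RPM in MuSCs to 0.332, 1.34 and 1.83 RPM in myoblasts (LFC -3.96, SE 0.38, limma adjusted p = 7.38e-05). Its neighbour *Birc2* fell too, by 0.98 on the log2 scale (limma adjusted p = 0.0066), to 22.9 to 27.5 RPM. *Traf1* (chr2:34831762-34851837, minus strand) was at 2.64, 0.697 and 3.52 normalized counts in MuSCs and at 26.6, 41.2 and 22.6 in myoblasts, or 0.0748, 0.0198 and 0.0999 RPM against 0.755, 1.17 and 0.642 RPM. The groups did not overlap, and the difference in log2(RPM + 1) was 0.79 (SE 0.18). Because *Traf1* passed the filter through the myoblasts alone, a difference in this direction was built in and no p is given for it.

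*Icam1* (chr9:20926672-20940113, plus strand) lay at 5.25, 1.88 and 4.56 RPM in MuSCs and at 1.54, 0.994 and 1.25 RPM in myoblasts. The groups came close, and the LFC of -1.04 (SE 0.36, limma adjusted p = 0.0449) was not called under 6 of 14 alternatives, where the adjusted p reached 0.136. *Tnfaip2* went the other way, from 2.56, 10.5 and 7.12 RPM in MuSCs to 15.0, 48.8 and 40.8 RPM in myoblasts. Library 4 was the lowest in both states and the level was higher in the myoblasts of 3 of 3 mice, with an LFC of 2.21 (SE 0.54, limma adjusted p = 0.0106, and 0.00173 with the mouse as a block). On scales normalized apart, *Tnfaip2* was thus at 3.7 ± 2.28 RPM in WT MuSCs, 6.74 ± 4 RPM in fresh MuSCs, 34.8 ± 17.7 RPM in myoblasts and 60.9 ± 17.2 RPM in Nedd4L-cKO MuSCs (SD, n = 3 each). *Nfkbia* in the same 4 groups was at 975 ± 169, 696 ± 127, 41.4 ± 10 and 1297 ± 323 RPM, and *Nfkbiz* at 237 ± 50.3, 142 ± 24.3, 4.86 ± 0.755 and 267 ± 51.8 RPM.

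By level per kb, *Nfkbia* still led in myoblasts at 21.4 RPM per kb, with all 3 libraries above those of *Tnfaip2*, which came second at 6.92. *Nfkb2* followed at 4.18 and *Relb* at 3.5, and the ranges of *Tnfaip2*, *Nfkb2* and *Relb* overlapped from each to the next. *Nfkb1* at 1.71 lay apart from both neighbours. *Nfkbiz* at 0.865 and *Tnfaip3* at 0.826 overlapped, as did *Icam1* at 0.254, *Birc3* at 0.134 and *Traf1* at 0.0964 from each to the next.

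Of the other pathway genes, 85 were tested between myoblasts and MuSCs and 54 were called, 17 higher and 37 lower in myoblasts, or 63.5% against 42.8% of all genes tested (22.2% higher and 20.6% lower), with a median LFC of -0.56. Without myoblast library 5 the count fell to 35 of 80, beside 4598 of 14474 for all genes. It was 34 of 63 with 10 normalized counts required in every library, beside 5278 of 12121 for all genes. The list was drawn up with earlier results of these libraries known, and it holds genes that passed the filter through 1 state alone. Its shares, in all and by role, are therefore not read as evidence about the pathway. Target genes made up 23 of the 54, 4 higher and 19 lower among 26 tested, with a median of -1.73. *Cxcl1* fell from 60.7, 165 and 191 RPM to 0.0482, 0.013 and 0.077 RPM (LFC -6.91, SE 0.44). *Irf1*, an interferon response regulator (LFC -5.30), fell as well, as did *Tnfaip6* (-5.07), *Ccl2* (-4.63), *Ccl7* (-4.06) and *Cxcl10* (-3.08). The matrix receptor gene *Sdc4* (LFC -3.77), also a MuSC marker, and the death receptor gene *Fas* (LFC -3.02) were lower too. *Ptgs2* was listed at 0 in all 3 MuSC libraries and at 8.40, 10.9 and 12.2 RPM in myoblasts, and *Il1b* likewise at 0 and at 1.66, 7.70 and 6.94 RPM. *Cxcl1* and *Tnfaip6* passed the filter through the MuSC libraries alone, and *Ptgs2* and *Il1b* through the myoblast libraries alone. A difference in the direction seen was thus built in for these genes, and no p is given for them. *Csf1*, a macrophage growth factor gene, rose from 9.93, 7.51 and 3.82 RPM to 384, 416 and 245 RPM (LFC 5.48, SE 0.34). *Bcl2l1*, which encodes a survival factor, rose by 3.83 on the log2 scale and *Tnfaip8*, at most 5.70 RPM in any library, by 1.57.

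Outside the targets, 5 of 6 ligand genes, 9 of 14 receptor genes, 7 of 21 signalling genes, 4 of 6 other subunit and IκB genes and 6 of 12 negative regulators were called. Together these are 31 of 59 genes, or 52.5%, beside 42.8% of all genes tested, and the share of the signalling genes was 33.3%. The 31 include genes that passed the filter through 1 state alone, so these shares are not read further. *Tnfrsf13c*, a receptor gene of the second route, rose by 2.79 on the log2 scale from 0.11 to 0.191 RPM to 5.82 to 7.57 RPM. It passed the filter through the myoblast libraries alone, as did *Nfkbid* below, so a rise was built in for both. *Ikbkg*, the regulatory subunit gene of the IκB kinase, rose by 2.23 (limma adjusted p = 0.000186) and *Rnf11*, which encodes a partner of the *Tnfaip3* product, by 2.64. Of the remaining subunit and IκB genes, *Nfkbid* rose by 0.69 on the log2 scale from levels near 0, while *Bcl3* (LFC -1.98), *Rel* (-1.52) and *Nfkbib* (-0.95) fell. *Rel* was called at a limma adjusted p of 0.0475 and not with the mouse as a block (adjusted p = 0.0855). *Rela* lay at 56.0, 49.7 and 35.6 RPM in MuSCs and at 37.4, 68.6 and 59.4 RPM in myoblasts, with an LFC of 0.20 (SE 0.29, limma adjusted p = 0.594).

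**Figure D4:**
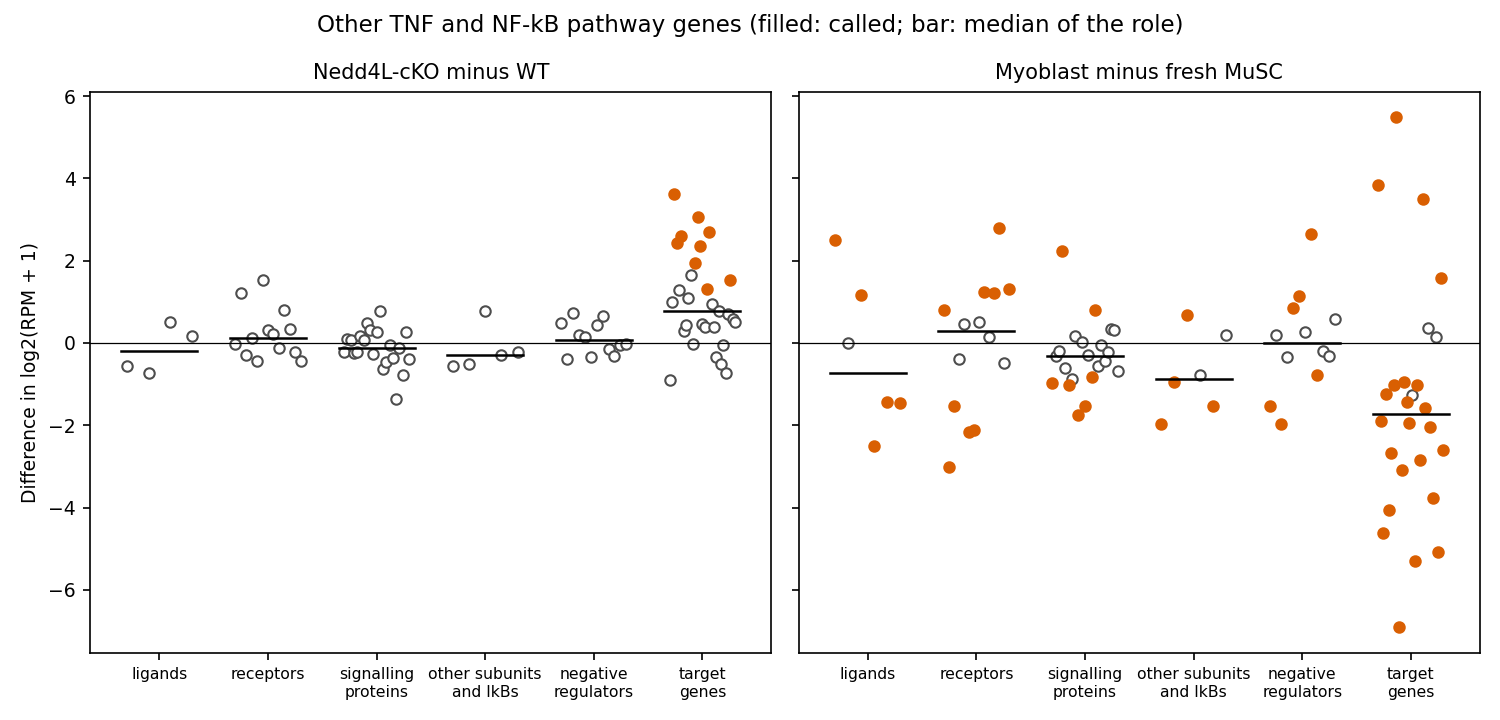
Difference in log2(RPM + 1) of the other tested pathway genes by role, for Nedd4L-cKO minus WT MuSCs on the left (84 genes) and myoblasts minus fresh MuSCs on the right (85 genes), where each point is a gene, filled if called, and each bar the median of the role. On the left the 9 filled points are all target genes above 0, and on the right 19 of the 23 filled target genes lie below 0.

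Beside these decreases, 11 immediate early genes such as *Fos*, known to respond to the digestion of muscle at 37°C, summed to 9781 to 16086 RPM in fresh MuSCs and to 629 to 812 RPM in myoblasts, and 10 of the 11 were called lower. Fresh MuSCs had been released by enzymes and sorted, while myoblasts had grown for 3 days, so quiescence, dissociation and medium cannot be told apart in this comparison. The sum of 11 fibro-adipogenic markers was 3103 to 3658 RPM in MuSCs and 254 to 358 RPM in myoblasts, with 5 of 8 tested called lower and 1 higher. In MuSCs *Col3a1* (1508 to 1725 RPM), *Gsn* (944 to 1311 RPM) and *Dpt* (411 to 507 RPM) made up most of it. *Pdgfra*, *Lum*, *Mfap5* and *Ly6a* reached at most 2.39, 1.98, 1.4 and 0.428 RPM there. The sum of 11 myofibre markers went the other way, from 369 to 554 RPM in MuSCs to 9112 to 20892 RPM in myoblasts, with 7 of 11 called higher, and that of 12 MuSC markers fell from 6202 to 8864 RPM to 3261 to 3486 RPM, with 7 called lower and 2 higher. The part of dissociation, of other cells and of myogenic progression in the values of *Nfkbia*, *Nfkbiz*, *Tnfaip3* and *Birc3* were not tested. The sum of 14 leukocyte markers was 3.49 to 7.98 RPM in MuSCs and 3.69 to 4.89 RPM in myoblasts, and that of 9 pericyte and smooth muscle markers was 1446 to 1687 RPM and 1672 to 2428 RPM. *Acta2* alone made up most of this last sum, at 1078 to 1382 RPM in MuSCs and 1610 to 2400 RPM in myoblasts. *Rgs5* and *Pdgfrb* reached at most 22.7 and 1.23 RPM, and of the 8 markers tested 2 were called, both lower in myoblasts.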

How the data were processed

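SMART-Seq HT libraries were sequenced on a NextSeq500 as single-end reads. The authors estimated transcript counts with Kallisto 0.46.1 on the GENCODE vM28 basic annotation, collapsed them per gene using tximport and deposited a signal, that is counts after division by DESeq2's factors, with 1 table per comparison. Depth in reads is therefore unknown. The deposited fold changes, p-values and RPM columns of the authors were not used.

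Normalized counts were divided by the mean of the 6 totals of a table to give RPM. Genes reaching 10 normalized counts in 3 or more libraries were fitted on log2(RPM + 1) with limma 3.58.1 in R 4.3.3 (lmFit, eBayes with trend and robust), with Benjamini-Hochberg adjustment over all tested genes. Differences on this scale understate the change of low genes. Replicates are separate mice. Libraries of the culture comparison were paired by the number their labels share, taken as the mouse because the series' design says both states came from the same mice, and deviations of the 2 libraries of a number from their group means correlated at -0.0314, -0.00502 and 0.018. The fit was tested on simulated data. The members and the lists were chosen with earlier results of these data known. All 10 genes are named, and of the pathway list each called gene, up to the 8 largest in a direction. Some other genes of that list are named outside this rule, *Tnf*, *Tnfrsf1a* and *Rela* among them. Gene positions and exonic lengths came from GENCODE M39 (GRCm39), a later release than that of the authors.

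Alternatives were scaling to each library's own total, TMM and RLE factors, a pseudocount of 0.1, other filters, limma without trend and robust, a replicate block and each library left out.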

Additional observations from a re-analysis of the deposited data

How the results depend on the processing

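Between genotypes, the log2 fold change of *Tnfaip2* ran from 3.34 to 4.23 over the alternatives, which describes its size only, since this comparison took part in choosing it. The count of pathway genes called ran from 5 to 8 with 1 library left out. Scaling each library to its own total changed the genes called over the whole table from 69 higher and 31 lower to 49 and 38 and moved the median of all genes to -0.09. Without Nedd4L-cKO replicate 2, 17 genes were called in place of 100. In culture, the count for the 10 genes ran from 6 to 8 with 1 library left out, and over all alternatives *Relb* lost its call under 10 of 14 and *Icam1* under 6 of 14, while *Nfkb2* gained one under 1, and the cause was not tested. *Traf1* fell below the filter in each fit without a myoblast library. The count of pathway genes ran from 35 to 45 with 1 library left out, and 10 counts in every library gave 34 of 63. With that filter 5278 of 12121 genes were called over the whole table. Own totals moved the median of all genes in culture from 0.04 to 0.14 and turned no member's direction. No called value reversed.

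With the replicate number as a block, the counts past the thresholds were 1 of the 10 genes between genotypes and 9 in culture, and of the pathway genes 8 and 50. Genotype replicates share only a number, with correlations of 0.0192, -0.0232 and -0.181. In culture the block changed no call among the 10 genes.

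The number of libraries, 3 a group, and the unknown depth limit what can be said of *Traf1* and of the other genes near 0.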
